A study of Homo sapiens with 24 samples.

Results

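The p53 pathway genes described here are 31 genes that were listed by name and looked up in the expression tables of 4 neuroblastoma cell lines treated with GSK-J4. All 31 had a row in each of the 4 tables, out of 39772 genes listed in at least 1 table. By symbol 30 members were found in the SK-N-BE(2) table, and RPS27L was found by its Ensembl identifier (ENSG00000185088) because that row carried the symbol RPS27.

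The study holds 24 libraries of polyA RNA in 8 groups of 3, with an untreated group and a group given 1 µM GSK-J4 for 72 hours in each line. GSK-J4 is a cell-permeable inhibitor of the H3K27 demethylases KDM6A and KDM6B. The labels call LAN5 (MYCN amplified), IMR5 (MYCN amplified) and SK-N-FI (MYCN wildtype) sensitive to the compound, and SK-N-BE(2) (MYCN amplified) resistant. No group is described as carrying an added allele, and each line stands for 1 tumour. With 4 lines, MYCN and every other trait of a line cannot be told apart.

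p53 is a transcription factor that is held at a low level by MDM2 and MDM4 and that accumulates after DNA damage and other stress. It binds paired copies of a short palindromic site near its target genes and switches on cell cycle inhibitors, death receptors, repair enzymes and its own inhibitors. Repression by p53 runs largely through CDKN1A and the DREAM complex, which silences cell cycle genes.

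The p53 consensus element (a pair of adjacent 10-base sites with no gap, at most 3 of 20 bases off the consensus and at most 1 of these in the central CWWG cores) was searched in the RefSeq promoter windows, 250 bases before to 50 after each gene's start (GRCh38.p14). The element is palindromic, so the search covers both strands. Windows were found for 23 of the 31 members and hold the element in 7, against 677 of 27305 genes (2.48%). At most 2 bases off and none in the cores left AEN and FAS among members, against 0.201% of all genes. The sequences are shown because the 7 genes include the main feedback gene, a death receptor and both damage recognition genes. Each runs 5′ to 3′ on the strand of its gene, with the element in capitals. MDM2 (chr12:68808883-68808982, plus strand) lies in an intron of MDM2 in GENCODE v29 and holds a pair of elements. The others overlap an annotated exon: AEN (chr15:88621301-88621330, plus strand), DDB2 (chr11:47214964-47214993, plus strand), FAS (chr10:88991304-88991333, plus strand, also an exon of ACTA2), FDXR (chr17:74872991-74873020, minus strand), RPS27L (chr15:63157522-63157551, minus strand) and XPC (chr3:14178565-14178594, minus strand, also an exon of LSM3).
MDM2: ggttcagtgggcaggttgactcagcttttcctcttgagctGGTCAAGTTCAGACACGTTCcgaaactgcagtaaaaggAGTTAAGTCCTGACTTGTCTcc
AEN: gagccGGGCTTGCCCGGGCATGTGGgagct
DDB2: gctccAAGCTGGTTTGAACAAGCCCtgggc
FAS: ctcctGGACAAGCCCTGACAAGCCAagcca
FDXR: ggcccGGGCAGGAGCGGGCTTGCCCtgcgg
RPS27L: aggagGGCCTAGAGCAGACAAGCCCgcccc
XPC: aagtgGAATTTGCCCAGACAAGCAAcatgg
A match is a description of these letters and not a measured binding site. All 7 genes with the element were called higher in LAN5 and 6 of 7 in IMR5, and of the members with a window and no match 13 of 16 and 13 of 15 were called higher in these lines. In SK-N-FI 2 of the 7 were higher and 1 lower, and none of the 6 tested in SK-N-BE(2) was called. The sequence TGATGNAA, searched on both strands as a core of the sites bound by ATF4 and CEBP factors, was present in the window of PLK3 and of no other member, against 4.46% of all genes.

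The deposited tables hold, for each gene and line, a mean of normalized counts over 6 libraries, a log2 fold change with its standard error and a p-value. They hold no value of a single library, so the spread over replicates enters only through the standard errors (n = 3 against 3 in every line), and whether replicates came from separate cultures is not given. The tables do not state the direction of the fold change, and it was read as GSK-J4 over untreated from genes outside the 31: BBC3 in the sensitive lines, and MT2A and SLC30A1 in SK-N-BE(2). Every direction given here rests on that reading. The table read as SK-N-FI names no line of the series and was matched by its low MYCN mean (116 normalized counts, against 11397 to 38907 in the others) and by elimination. Effects below are log2 fold changes ± SE after removal of the shrinkage in the deposited values. A gene is called where the adjusted p in the authors' deposited table is under 0.05. Levels are the mean normalized counts split into untreated and treated by the fold change and scaled by the summed means of that table, as normalized counts per-million (cpm). The tables were normalized separately, so levels set across lines are a description with no test.

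In LAN5 28 of 31 members were called higher and 0 lower in the authors' deposited table (DESeq2), where 22.5% of all genes tested were higher and 19.2% lower. At an unadjusted p under 0.05 the members also counted 28 higher and 0 lower. In IMR5 25 of 29 tested members were higher and 1 lower, against 22.6% and 21.6% of all genes. SK-N-FI had 8 of 30 higher and 6 lower, against 16.8% and 14.8%, so its share of higher members (26.7%) was the nearest to the background among the sensitive lines. In SK-N-BE(2) 0 of 25 tested members were higher and 1 was lower, against 1.62% and 0.858% of all genes, and at an unadjusted p under 0.05 DESeq2 gave 2 higher and 1 lower.

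Over tested members the median effect was 1.76 for LAN5 and 1.01 for IMR5, while SK-N-FI had 0.09 and the resistant line -0.00077. Over all genes tested the medians of these lines were 0.12, 0.02, 0.01 and -0.00026. The summed level of the 31 genes went from 1281 to 3696 cpm in LAN5 and from 1926 to 4406 in IMR5. It went from 1154 to 1371 in SK-N-FI and from 827 to 829 in SK-N-BE(2). Every member was called in at least 1 line, and 23 were called higher in both LAN5 and IMR5. Of these 23, SK-N-FI had 8 called higher, 11 not called and 4 called lower. Shares over all genes for calls in several lines together were not computed, so these overlaps are a description only.

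**Figure D1:**
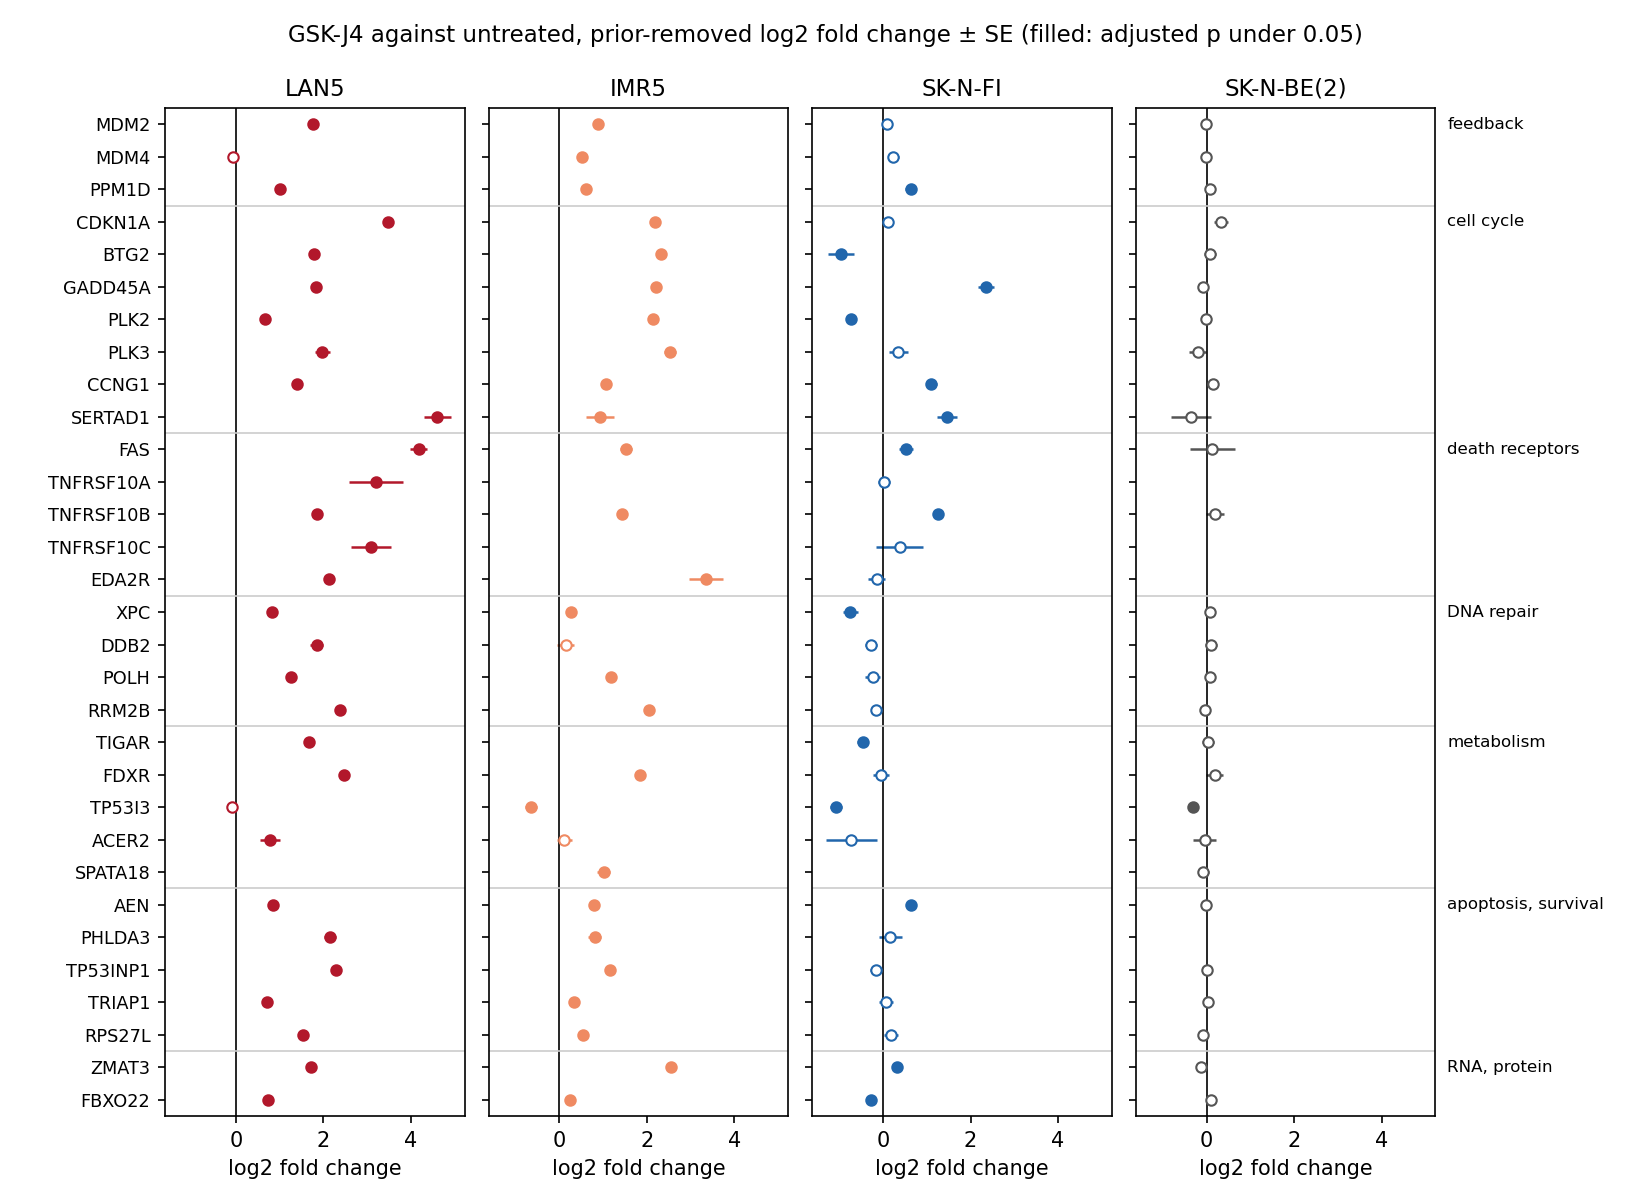
Log2 fold change (GSK-J4 against untreated, prior-removed, horizontal axis) with its standard error for each of the 31 members (rows, grouped by role) in the 4 lines. Filled points have an adjusted p under 0.05 in the authors' deposited table, and genes with a mean under 10 normalized counts are left out. The LAN5 and IMR5 points lie mostly right of 0, with medians of 1.76 and 1.01, the SK-N-FI points lie on both sides, and the SK-N-BE(2) points lie near 0.

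MDM2 (chr12:68808176-68850686), the ubiquitin ligase that degrades p53 and is itself a p53 target, went from 89.7 to 303 cpm in LAN5 and from 159 to 294 in IMR5. In SK-N-FI it stood at 74.1 and 79.4, and in SK-N-BE(2) at 76.8 and 76.2. MDM2 therefore reached about the same treated level in LAN5 and IMR5 from different untreated levels, and lay near its untreated level in the other lines. LAN5 had an effect of 1.76 ± 0.0834 (adjusted p = 1.64e-96 by DESeq2) and IMR5 one of 0.89 ± 0.0692 (adjusted p = 5.89e-36). SK-N-FI had 0.10 ± 0.112 (adjusted p = 0.556) and the resistant line -0.01 ± 0.0742 (adjusted p = 0.984). The 95% interval in SK-N-FI ran from -0.12 to 0.32 and in SK-N-BE(2) from -0.16 to 0.13, both below the effect in IMR5.

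MDM4 (chr1:204516379-204558120), a relative of MDM2 that blocks the activity of p53, followed another order. Its level was 105 untreated and 101 treated cpm in LAN5, and 197 and 279 in IMR5. SK-N-FI had 99.2 and 117, and SK-N-BE(2) 74.7 and 73.8. MDM4 was called higher in IMR5 and in no other of the 4 lines (0.51 ± 0.0707, adjusted p = 6.04e-12 by DESeq2), and its effect was smaller in LAN5 than in IMR5 by 0.57 ± 0.121 on the log2 scale (adjusted p = 1.19e-05). The difference between IMR5 and SK-N-FI did not pass (0.27 ± 0.140, adjusted p = 0.11, 95% interval -0.01 to 0.54).
PPM1D, a phosphatase that switches off p53 and the kinases upstream of it, rose in all 3 sensitive lines, by 1.00 ± 0.0692 in LAN5, by 0.60 ± 0.0762 in IMR5 and, with a larger error, by 0.63 ± 0.125 in SK-N-FI. Its level went from 85.5 to 171 cpm in LAN5 and was lowest in SK-N-FI, at 24.6 and 38.2. MDM4 had the smallest effect of these 3 genes in LAN5 and IMR5, and MDM2 in SK-N-FI.

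CDKN1A (p21, chr6:36676460-36687339), the cyclin-dependent kinase inhibitor that carries out p53 arrest, had 31.3 untreated and 347 treated cpm in LAN5, and 76.2 and 346 in IMR5. SK-N-FI had 75.9 and 82.6, and SK-N-BE(2) 8.80 and 11.1. The untreated level in SK-N-FI was thus close to that in IMR5, and the lines separated after treatment. The change was 11.1-fold in LAN5 (3.47 ± 0.0791, 95% interval 3.32 to 3.63) and 4.54-fold in IMR5 (2.18 ± 0.0985). It was 0.12 ± 0.109 in SK-N-FI (adjusted p = 0.439 by DESeq2) and 0.33 ± 0.154 in SK-N-BE(2) (adjusted p = 0.389, unadjusted 0.0308). Per kilobase of exon, CDKN1A became the highest of the 31 members in treated LAN5, at 114 cpm per kb, and in treated IMR5 it followed, at 113, after TNFRSF10B at 152 and CCNG1 at 134.

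All 7 cell cycle members rose in both LAN5 and IMR5, and in SK-N-FI 3 rose, 2 fell and 2 were not called. In LAN5 the largest effect of the group was that of SERTAD1 (4.61 ± 0.313), a CDK4-binding regulator that went from 0.613 to 14.9 cpm, and the smallest that of PLK2 (0.67 ± 0.0705). In IMR5 SERTAD1 had instead the smallest effect of the group (0.93 ± 0.322, from 1.46 to 2.78 cpm) and PLK3 the largest (2.53 ± 0.138, from 6.03 to 34.9). PLK2 and PLK3 are polo-like kinases that answer to stress. PLK2 stood at 86.6 and 138 cpm in LAN5 and at 21.6 and 94.8 in IMR5. In SK-N-FI it fell from 84.0 to 50.2 (-0.74 ± 0.104), and in SK-N-BE(2) it had 38.3 and 37.6. The PLK2 effect thus differed in sign between SK-N-FI and the other sensitive lines, with the larger rise in the line of lowest untreated level.

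BTG2, an antiproliferative cofactor of mRNA decay, had the same pattern of signs. It went from 16.7 to 57.8 cpm in LAN5 and from 27.1 to 136 in IMR5. In SK-N-FI it fell from 3.26 to 1.68 (-0.96 ± 0.294, adjusted p = 0.00523 by DESeq2), on a mean of 39.7 normalized counts, and in SK-N-BE(2) it stood at 12.7 and 13.3. BTG2 was thus lowest in SK-N-FI both before and after treatment.
GADD45A, a growth arrest protein known as a target of p53 and also of ATF4, ended at a similar level in the sensitive lines. Its level rose from 50.1 to 179 cpm in LAN5, from 41.1 to 190 in IMR5 and from 35.0 to 179 in SK-N-FI, and it was 39.6 and 37.3 in SK-N-BE(2). The effect in SK-N-FI (2.35 ± 0.174) was the largest of any member there, and it was larger than in LAN5 by 0.52 ± 0.196 (adjusted p = 0.0213, not under 0.01). The difference from IMR5 did not pass (IMR5 minus SK-N-FI -0.15 ± 0.188, 95% interval -0.51 to 0.22).
CCNG1, a cyclin that recruits a phosphatase to MDM2, rose in LAN5 (1.39 ± 0.0798), in IMR5 (1.06 ± 0.081) and, with a larger error, in SK-N-FI (1.10 ± 0.128). Its level per kilobase was highest in IMR5, at 64.5 untreated and 134 treated cpm per kb, against 11.7 to 31.7 in LAN5 and SK-N-FI. PLK3 in SK-N-FI (0.35 ± 0.208) and all 6 tested cell cycle members in SK-N-BE(2) were not called.

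**Figure D2:**
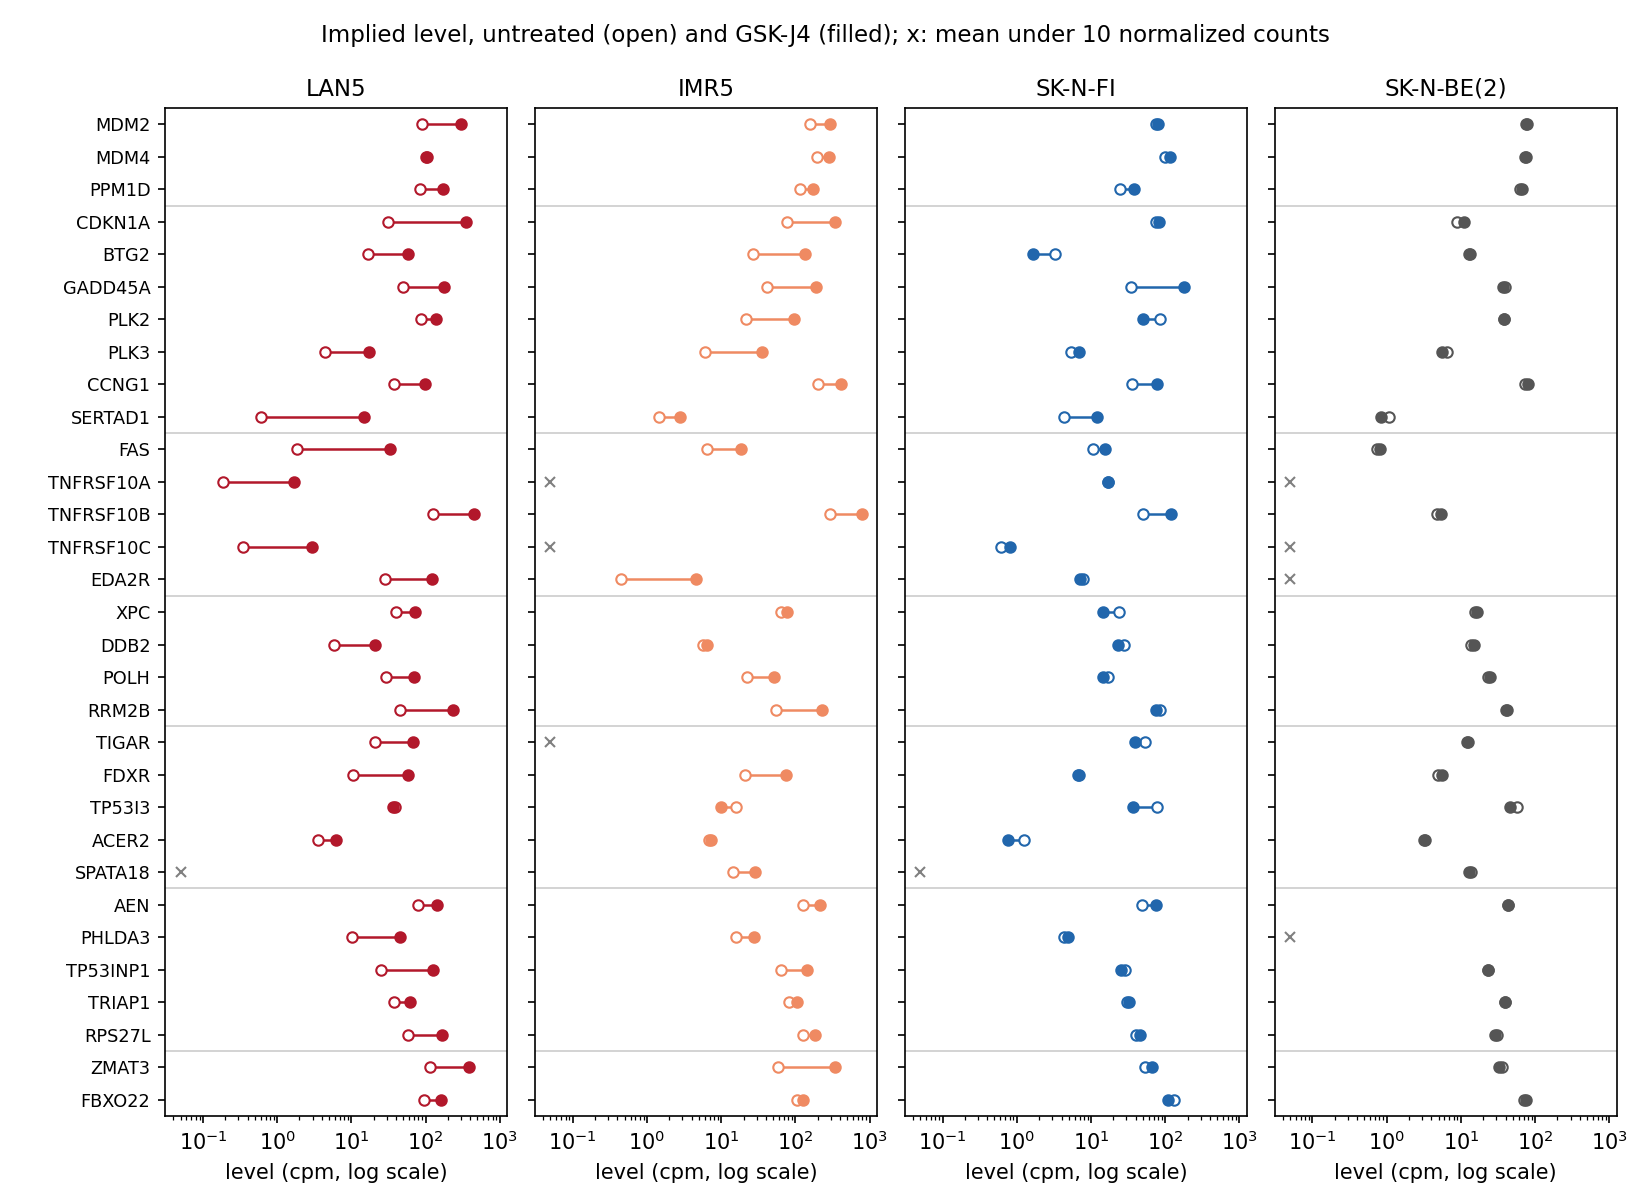
Level implied by the deposited mean and the fold change, in cpm of each table (horizontal axis, log scale), for the 31 members in the 4 lines. Open points are untreated, filled points are GSK-J4, and crosses mark genes with a mean under 10 normalized counts, placed at the left edge with no level. CDKN1A ends near 347 cpm in LAN5 and near 346 in IMR5, and stays between 75.9 and 82.6 in SK-N-FI.

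The death receptors and their relatives separated the lines in level as well as in effect. FAS (chr10:88990582-89015785), a receptor that triggers apoptosis, rose from 1.84 to 33.4 cpm in LAN5, from 6.36 to 18.3 in IMR5 and from 10.7 to 15.3 in SK-N-FI. In SK-N-BE(2) it had 0.747 and 0.816 cpm on a mean of 12.5 normalized counts, and the authors' deposited table gives no adjusted p there. The order of FAS in untreated cells (SK-N-FI, IMR5, LAN5, SK-N-BE(2)) thus became LAN5, IMR5, SK-N-FI, SK-N-BE(2) after treatment. The effects were 4.18 ± 0.192, 1.53 ± 0.144 and 0.52 ± 0.160 in LAN5, IMR5 and SK-N-FI.
TNFRSF10B (DR5), a TRAIL receptor known as a target of p53 and of CHOP, rose from 126 to 456 cpm in LAN5, from 289 to 783 in IMR5 and from 50.3 to 120 in SK-N-FI. It was 4.79 and 5.47 in SK-N-BE(2), where it was not called (0.19 ± 0.207). TNFRSF10B was thus the most abundant death receptor of the list in each sensitive line, per kilobase too, and rose 3.61-fold, 2.71-fold and 2.38-fold.
TNFRSF10A (DR4) and TNFRSF10C, a decoy without a death domain, were low. In LAN5 they rose from 0.184 to 1.70 and from 0.350 to 2.98 cpm (3.21 ± 0.622 and 3.09 ± 0.460). TNFRSF10A had its highest level in SK-N-FI (16.7 and 17.0 cpm, 0.03 ± 0.134, not called), and under 2 normalized counts in IMR5 and SK-N-BE(2).
EDA2R, a receptor for ectodysplasin A2, rose from 28.4 to 124 cpm in LAN5 (2.12 ± 0.0859) and from 0.449 to 4.57 in IMR5 (3.35 ± 0.384), the largest effect of any member in IMR5. It was 7.73 and 7.01 in SK-N-FI (-0.14 ± 0.195, not called), so the larger effect came at the lower level. In all, 5 of 5 death receptor members rose in LAN5, 3 of 4 in IMR5 and 2 of 5 in SK-N-FI, against 22.5%, 22.6% and 16.8% of all genes. The 1 tested in SK-N-BE(2) was not called.

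The 4 DNA repair members rose in LAN5, 3 of 4 rose in IMR5, and in SK-N-FI none rose and 1 fell. The shares of all genes that rose were 22.5%, 22.6% and 16.8%, and 14.8% fell in SK-N-FI. RRM2B, the p53-induced subunit of ribonucleotide reductase, went from 45.0 to 233 cpm in LAN5 and from 55.3 to 229 in IMR5. SK-N-FI had the highest untreated level, 84.1, with 74.8 after treatment, and SK-N-BE(2) had 41.7 and 40.8. RRM2B thus had the largest effect of the group in LAN5 (2.37 ± 0.0772) and in IMR5 (2.05 ± 0.0796), and in SK-N-FI the estimate was below 0 and not called (-0.17 ± 0.0993, adjusted p = 0.193 by DESeq2).
XPC, which recognizes damage in nucleotide excision repair, rose from 40.1 to 71.4 cpm in LAN5 and from 64.6 to 77.3 in IMR5. It fell from 24.0 to 14.3 in SK-N-FI (-0.75 ± 0.174) and had 15.6 and 16.5 in SK-N-BE(2). The rise in IMR5 was small (0.26 ± 0.0851, adjusted p = 0.00667 by DESeq2).
DDB2, which recognizes ultraviolet damage upstream of XPC, rose from 5.88 to 21.1 cpm in LAN5 (1.85 ± 0.154) and was not called in IMR5, at 5.76 and 6.36 (0.14 ± 0.187, adjusted p = 0.588). LAN5 and IMR5 thus started at nearly the same DDB2 level. Their effects differed by 1.70 ± 0.242 on the log2 scale (adjusted p = 1.9e-11 by a two-sided Wald test). DDB2 was higher untreated in SK-N-FI, at 28.2 with 23.3 after treatment (-0.28 ± 0.131, not called).
POLH, a polymerase that copies past damaged bases, rose in LAN5 (1.27 ± 0.0969) and IMR5 (1.18 ± 0.103). The difference of 0.09 ± 0.141 had a 95% interval from -0.19 to 0.37. In SK-N-FI and SK-N-BE(2) it was not called.

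The metabolic members were the most mixed group. FDXR, a mitochondrial electron transfer reductase, rose from 10.4 to 57.9 cpm in LAN5 (2.47 ± 0.116) and from 20.9 to 75.2 in IMR5 (1.85 ± 0.106), and stood between 4.93 and 6.98 in SK-N-FI and SK-N-BE(2), uncalled in both. TP53I3, a quinone oxidoreductase named for its induction by p53, rose in none of the 4 lines. It had 38.8 and 36.5 cpm in LAN5 (-0.09 ± 0.106, not called), and fell from 15.6 to 9.99 in IMR5, from 76.5 to 36.5 in SK-N-FI and from 56.5 to 45.7 in SK-N-BE(2). The falls were -0.64 ± 0.140, -1.07 ± 0.139 and -0.31 ± 0.0726, and TP53I3 was the only member called in SK-N-BE(2) (adjusted p = 0.00261 by DESeq2).
TIGAR, a phosphatase that slows glycolysis, rose from 21.1 to 67.9 cpm in LAN5 (1.68 ± 0.0966) and fell from 53.5 to 38.8 in SK-N-FI (-0.47 ± 0.125). In SK-N-BE(2) it had 12.0 and 12.3. In IMR5 its mean was 0.51 normalized counts, against 688, 743 and 195 in LAN5, SK-N-FI and SK-N-BE(2), while C12orf4, RAD51AP1 and NDUFA9, which lie downstream of it on chromosome 12, had means of 583, 1430 and 255 in IMR5. Of the genes between RAD51AP1 and NDUFA9, DYRK4 had a mean of 16.7 in IMR5, against 221, 381 and 54.1 in the other lines, and AKAP3 had 1.94, against 8.74, 19.9 and 7.22. TIGAR was thus listed near 0 in IMR5 and present in the other lines. The cause was not tested.
ACER2, a ceramidase, rose in LAN5 (0.78 ± 0.231, from 3.60 to 6.20 cpm) and was not called elsewhere. SPATA18, a protein of mitochondrial quality control, rose in IMR5 from 14.2 to 28.7 cpm (1.01 ± 0.142). Its mean was 7.94 normalized counts in LAN5 and 1.82 in SK-N-FI. At 13.6 and 12.9 cpm it was not called in SK-N-BE(2).

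All 5 members linked to apoptosis and survival rose in LAN5 and in IMR5, and in SK-N-FI AEN rose and the other 4 were not called. Among all genes tested, 22.5%, 22.6% and 16.8% rose in these lines. AEN, an exonuclease that degrades DNA and RNA in dying cells, rose by 0.86 ± 0.071 in LAN5, by 0.79 ± 0.0791 in IMR5 and, with the smallest estimate, by 0.63 ± 0.101 in SK-N-FI. Its level went from 78.4 to 142, from 126 to 217 and from 47.9 to 74.2 cpm. The 3 pairwise differences between these lines did not pass, and the widest, LAN5 minus SK-N-FI, had a 95% interval from -0.01 to 0.47.
TP53INP1, a cofactor of p53 in the nucleus and of autophagy in the cytoplasm, rose from 25.4 to 125 cpm in LAN5 (2.30 ± 0.0882) and from 63.9 to 143 in IMR5 (1.16 ± 0.0812). It had 28.8 and 25.7 in SK-N-FI. PHLDA3, a repressor of AKT, rose from 10.2 to 45.6 in LAN5 (2.15 ± 0.129) and from 15.6 to 27.4 in IMR5 (0.81 ± 0.147), and had 4.31 and 4.85 in SK-N-FI. Both thus followed CDKN1A in having the larger effect in LAN5.
RPS27L, a ribosomal protein paralog, rose by 1.54 ± 0.0874 in LAN5 and 0.53 ± 0.0775 in IMR5. TRIAP1, a mitochondrial lipid carrier that restrains apoptosis, had the smallest effects of the group in LAN5 (0.71 ± 0.0966) and IMR5 (0.34 ± 0.0705).
Of the pair linked to RNA and protein turnover, ZMAT3, an RNA-binding zinc finger protein, rose from 116 to 384 cpm in LAN5, from 59.0 to 345 in IMR5 and from 53.3 to 66.8 in SK-N-FI, with 35.8 and 32.7 in SK-N-BE(2). Its effect was 1.72 ± 0.0823, 2.55 ± 0.097 and 0.33 ± 0.0972 in the sensitive lines. FBXO22, an F-box protein of a ubiquitin ligase, rose by 0.74 ± 0.0744 in LAN5 and 0.25 ± 0.0778 in IMR5 and fell by 0.27 ± 0.0865 in SK-N-FI.

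The sizes of effect were compared between lines by a two-sided Wald test on the prior-removed values, adjusted over every gene whose mean reached 10 in the tables compared (100 where SK-N-BE(2) is one). Where lines are averaged, the standard error holds the error within each line and not the spread between lines. An effect is called larger where its signed log2 fold change is higher and smaller where it is lower, so a deeper fall counts as smaller. The question of LAN5 against IMR5 is how far lines with the same label differ. Of 27 members tested, 18 had a larger effect in LAN5 and 7 in IMR5, against 24.1% and 27.9% of all genes. FAS (2.66 ± 0.240), CDKN1A (1.29 ± 0.126), TP53INP1 (1.14 ± 0.120) and RPS27L (1.01 ± 0.117) had the largest test statistics of those larger in LAN5, while the widest difference was that of SERTAD1 (3.68 ± 0.449). PLK2 (-1.46 ± 0.117), ZMAT3 (-0.82 ± 0.127), BTG2, GADD45A, EDA2R, PLK3 and MDM4 had the larger effect in IMR5. AEN and POLH were not called. All genes tested in LAN5 had a median effect of 0.12, and with each table centred on its median CCNG1, RRM2B and ACER2 no longer passed in this comparison.

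SK-N-FI differs from LAN5 and IMR5 in MYCN by label. Against SK-N-FI, 26 of 30 members had a larger effect in LAN5 and 1 (GADD45A) a smaller one, against 21.6% and 24.1% of all genes. In IMR5 14 of 27 were larger and 0 smaller (also 0 at an unadjusted p under 0.05), against 20.2% and 22.0%. The mean of LAN5 and IMR5 exceeded SK-N-FI for 21 of 27 members and fell below it for 0 (0 at an unadjusted p under 0.05), against 18.8% and 22.9%. The members with the largest test statistics were CDKN1A (2.71 ± 0.126), RRM2B (2.38 ± 0.114), PLK2 (2.14 ± 0.119), ZMAT3 (1.81 ± 0.116) and TP53INP1 (1.89 ± 0.140). The 6 that did not pass were GADD45A, CCNG1, AEN, PPM1D, MDM4 and ACER2, and the first 4 of these had risen in all 3 sensitive lines. Their differences were -0.33 ± 0.184, 0.13 ± 0.140, 0.19 ± 0.114 and 0.17 ± 0.135, with 95% intervals from -0.69 to 0.03, from -0.15 to 0.40, from -0.03 to 0.42 and from -0.10 to 0.43. The list thus held genes that separated SK-N-FI from the other sensitive lines by over 2 on the log2 scale and genes whose difference was not detectable.

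**Figure D3:**
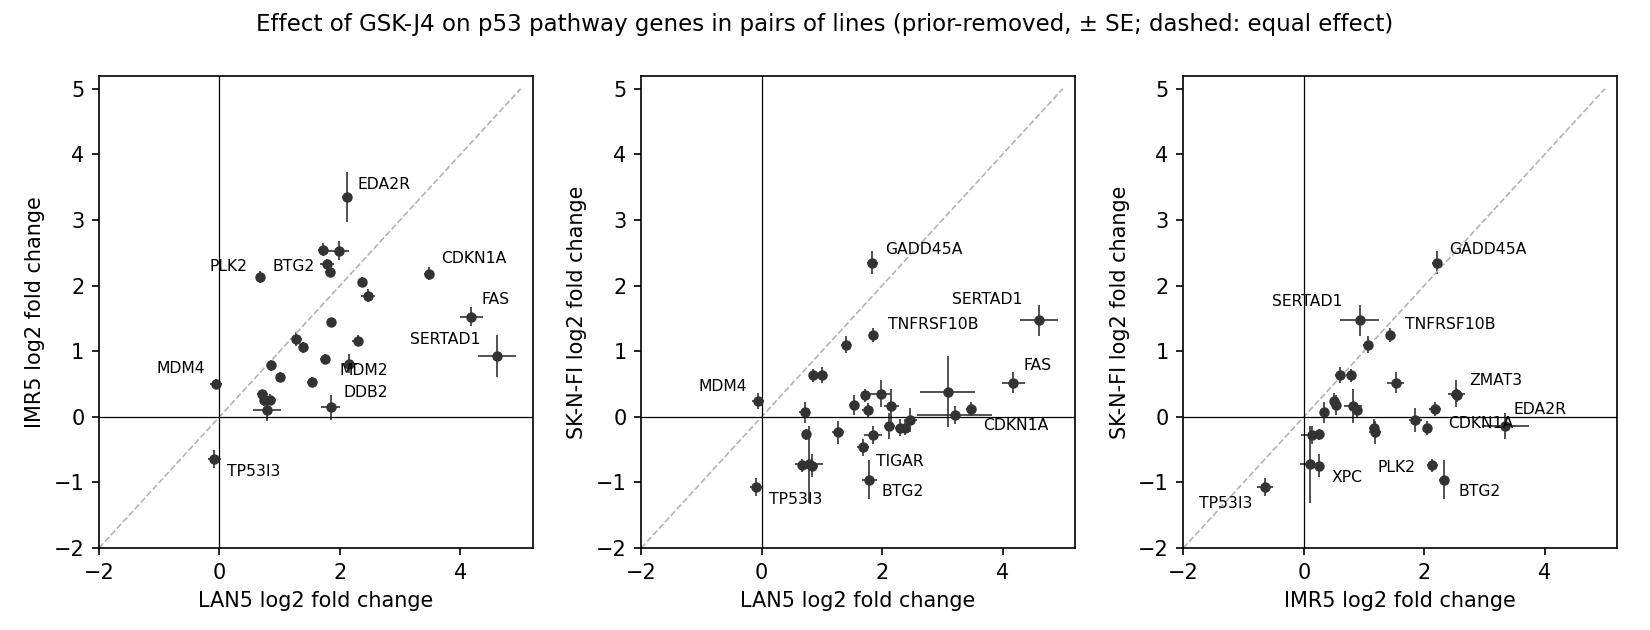
Prior-removed log2 fold change of the members in one line against another, with standard errors, for LAN5 and IMR5, LAN5 and SK-N-FI, and IMR5 and SK-N-FI; the dashed line marks equal effects and members with a mean under 10 normalized counts in either line are left out. CDKN1A lies at 3.47 for LAN5, at 2.18 for IMR5 and at 0.12 for SK-N-FI, while GADD45A lies near the dashed line in each panel, at 1.83, 2.21 and 2.35.

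SK-N-BE(2) is the resistant line. There the largest positive effect among tested members was that of CDKN1A, 0.33 ± 0.154, and the largest negative one that of TP53I3. LAN5 had a larger effect than SK-N-BE(2) for 18 of 20 members and a smaller one for 0 (0 at an unadjusted p under 0.05), against 24.3% and 36.4% of all genes. IMR5 had 16 of 20 larger and 0 smaller (1, TP53I3, at an unadjusted p under 0.05), against 29.0% and 33.4%. SK-N-FI had 5 larger (GADD45A, CCNG1, AEN, PPM1D and ZMAT3) and 5 smaller (PLK2, TP53I3, XPC, FBXO22 and TIGAR) of 19, against 22.3% and 22.0% of all genes, and the 5 smaller ones were members that fell in SK-N-FI. These shares are near the background. For CDKN1A (-0.21 ± 0.189, 95% interval -0.58 to 0.16) and MDM2 (0.11 ± 0.134, 95% interval -0.15 to 0.37) the difference of SK-N-FI from the resistant line did not pass. The mean of the 3 sensitive lines was larger for 15 of 18 members and smaller for 1, TP53I3 (-0.29 ± 0.104), against 26.4% and 32.7%. By test statistic the first 5 were GADD45A (2.22 ± 0.109), ZMAT3 (1.66 ± 0.104), RRM2B (1.45 ± 0.0927), CCNG1 (1.03 ± 0.0854) and MDM2 (0.93 ± 0.0905). By size CDKN1A (1.59 ± 0.164) came before RRM2B. PLK2 was among the 15 (0.71 ± 0.102), while SK-N-FI alone had a smaller PLK2 effect than SK-N-BE(2) (-0.71 ± 0.136). GADD45A, ZMAT3 and CCNG1 were larger in SK-N-FI alone too. The RRM2B difference there did not pass (-0.14 ± 0.126), nor did that of MDM2. The minimum mean of 100 left out all 5 death receptor members in these comparisons.

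Untreated levels followed another order. Of the 31 members, 16 had their highest untreated level cpm in IMR5, 9 in SK-N-FI, 5 in LAN5 and 1 (PLK3) in SK-N-BE(2). The lowest level was in SK-N-BE(2) for 15, in SK-N-FI for 9, in IMR5 for 5 and in LAN5 for 2. The median untreated level was between 27.1 and 31.3 cpm in the sensitive lines and 15.6 cpm in SK-N-BE(2). Fewer transcripts per cell and fewer cells that express a gene cannot be told apart in these bulk libraries.

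Of 23 relatives and regulators of p53, 8 rose and 7 fell in LAN5, 6 of 22 tested rose and 9 fell in IMR5, and 9 rose and 2 fell in SK-N-FI. In percent of those tested, 34.8, 27.3 and 39.1 rose in these lines, against 22.5%, 22.6% and 16.8% of all genes. Of all genes 19.2%, 21.6% and 14.8% fell, beside 7 of 23, 9 of 22 and 2 of 23 here. In IMR5 more of the 22 fell than rose. In SK-N-BE(2) 0 of 22 tested were called by DESeq2 (0 higher and 0 lower at an unadjusted p under 0.05). TP73, a p53 relative, rose in LAN5 (3.09 ± 0.674) at a low level, from 0.149 to 1.27 cpm. Its level was higher in IMR5 (-0.34 ± 0.159) and SK-N-FI (-0.47 ± 0.202), where it was not called. RPL5, which sequesters MDM2, rose in IMR5 (0.60 ± 0.0809) and SK-N-FI (0.81 ± 0.143) and was not called in LAN5 (-0.06 ± 0.0715).

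Among 40 other genes known as p53 targets, 28 rose and 7 fell in LAN5, and 21 of 38 tested rose and 3 fell in IMR5. In SK-N-FI 9 of 36 rose and 3 fell, and in SK-N-BE(2) 2 of 33 rose and 2 fell. In percent of those tested, 70, 55.3, 25 and 6.06 rose in these lines, against 22.5%, 22.6%, 16.8% and 1.62% of all genes. Of all genes 19.2%, 21.6%, 14.8% and 0.858% fell. BBC3 is among these 40, and since it set the direction its rise in the sensitive lines is no result. The median effects of the 40 genes were 1.09, 0.80, 0.21 and -0.02, so the order of the lines was that of the 31 members. GDF15, a stress cytokine, had the largest effect of these genes in each sensitive line (7.44 ± 0.518, 9.65 ± 0.270 and 3.47 ± 0.274). Of 16 cell cycle genes repressed through DREAM, 15 fell in LAN5 and 13 in IMR5, against 19.2% and 21.6% of all genes. SK-N-FI had 12 that fell and 1 that rose, against 14.8% and 16.8% of all genes. In SK-N-BE(2) 0 were called by DESeq2 (2 higher and 0 lower at an unadjusted p under 0.05). PLK1, a mitotic kinase, fell by 3.12 ± 0.0987 in LAN5, and had -1.01 ± 0.083 in IMR5 and -1.55 ± 0.133 in SK-N-FI. Of these 16 genes, 12 fell in SK-N-FI, where CDKN1A was not called, and the cause of their fall was not tested.

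All 8 targets of ATF4 and CHOP rose in each sensitive line, with medians of 3.11, 2.86 and 1.90, where 22.5%, 22.6% and 16.8% of all genes rose. SK-N-FI was therefore a line where these 8 rose while the members had a median of 0.09, and 0 of 8 were called in SK-N-BE(2) by DESeq2 (0 higher and 1 lower at an unadjusted p under 0.05). Their part in the members' response was not tested. Transcripts encoded by mitochondrial DNA also moved: 9 of 13 fell in LAN5 and 8 in IMR5, all 13 fell in SK-N-FI while SK-N-BE(2) had 2 that fell, and their part was not tested. Of all genes tested, 19.2%, 21.6%, 14.8% and 0.858% fell in LAN5, IMR5, SK-N-FI and SK-N-BE(2). Of 9 neuroblastoma markers, HAND2, ISL1 and ELAVL4 were present in all lines, while TH had no row in IMR5 and SK-N-FI, and STMN2 was near 0 in IMR5. These markers moved with treatment too: 8 fell in LAN5, where their sum went from 4529 to 2177 cpm, 4 of 7 tested rose and 2 fell in IMR5 (1124 to 1232), 2 of 8 rose and 4 fell in SK-N-FI (1680 to 1516), and 5 fell in SK-N-BE(2) (4674 to 4288). Summed fibroblast markers went from 93.3 to 70.7 cpm in LAN5, from 39.8 to 128 in IMR5, through COL1A1 (3.54 ± 0.307), and from 154 to 194 in SK-N-FI. They were at 1903 and 2301 in SK-N-BE(2), carried there by LUM and DCN. Summed immune and endothelial markers were between 0.329 and 3.04. Their part in the results was not tested.

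**Figure D4:**
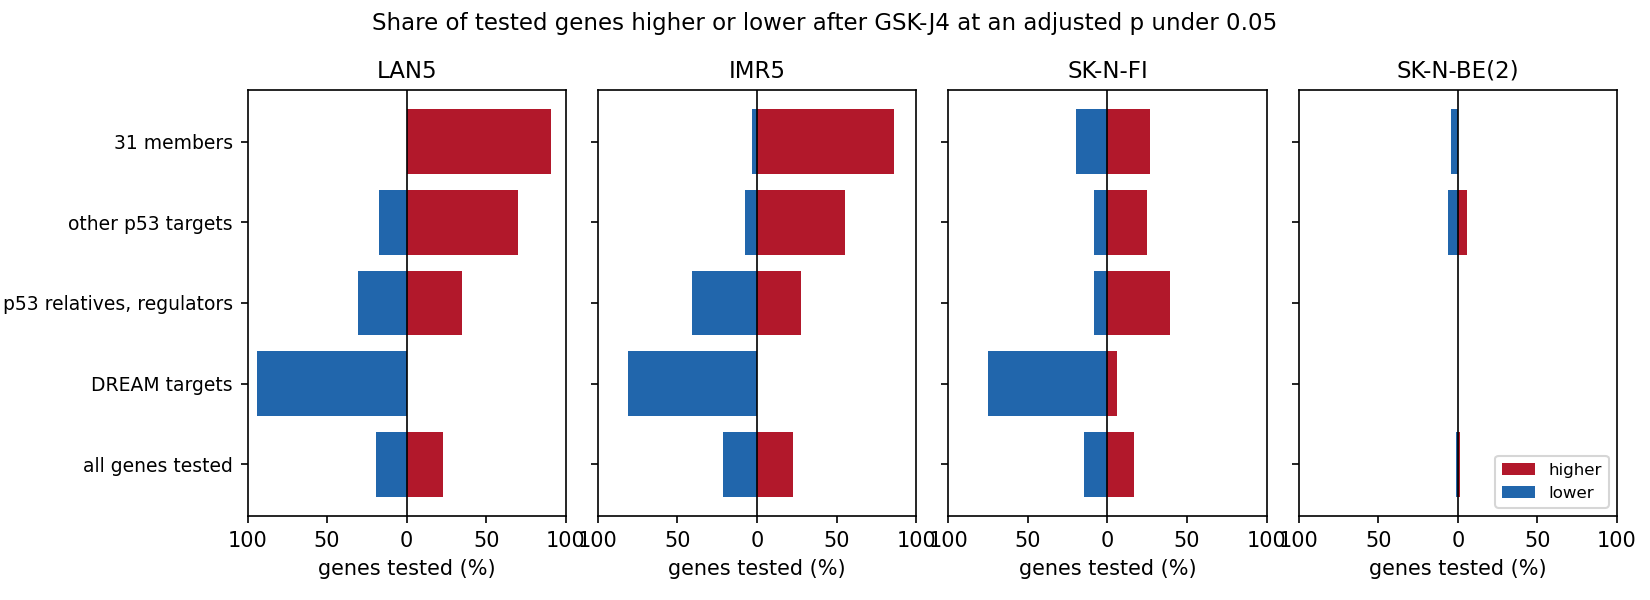
Share of tested genes called higher (right) or lower (left) after GSK-J4 in each line, in percent, for the 31 members, 40 other p53 targets, 23 relatives and regulators of p53, 16 genes repressed through DREAM and all genes tested. The members' bar reaches 90.3% higher in LAN5 and 86.2% in IMR5, with SK-N-FI at 26.7%, against 22.5%, 22.6% and 16.8% of all genes.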

How the data were processed

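RNA was polyA-selected and libraries were made with a stranded kit, per the labels' protocols. FastQC, STAR, DESeq2 and hg38 are named in the submitters' processing notes; for versions, the counting tool, its strand setting and the annotation the sources used here give nothing. Per the file headers, the authors deposited 1 DESeq2 table per line with the mean of normalized counts (a signal, not whole counts), the log2 fold change with a standard error, the Wald statistic (a score), the p-value and the adjusted p-value. From the values, the deposited log2 fold changes were shrunken by a normal prior, which was removed here with a prior width of 2 times the largest standard error, choosing between the 2 solutions at the mean where the running median (501 genes) of the standard error peaks. In the SK-N-BE(2) table the statistic differed by over 0.0001 from the ratio of fold change to standard error for 19488 genes (median difference 0.000382).

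Calls use an adjusted p under 0.05. Differences between lines were tested in 8 contrasts by two-sided Wald tests with Benjamini-Hochberg adjustment over all genes. Calculations used Python 3.11.15, numpy 2.4.6, pandas 2.3.3, scipy 1.17.1 and matplotlib 3.10.9, and the removal and the contrasts were tested on simulated data. The simulations took the same prior width and standard errors as the calculation, so they check its arithmetic and cannot test the inferred prior. Gene positions are from GENCODE v29 (GRCh38) and promoters from RefSeq (GRCh38.p14). The total count per library is unknown, so no depth or interval per library is given. The members and the other lists were chosen with earlier results of these data known. Named genes are MDM2, MDM4, CDKN1A, the extremes of each role group per line, the 5 largest statistics per contrast, members called in opposite directions and the extremes of the other lists. A few genes of these lists, and 1 marker list, are not reported here and are not in the counts. The alternatives were another threshold, a minimum fold change, other filters, the deposited values, a prior wider by 1.25 times and centring.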

Additional observations from a re-analysis of the deposited data

Results flagged for a closer look

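The effect of GSK-J4 differed between lines for many members by a test of the difference itself (two-sided Wald test, Benjamini-Hochberg adjusted over all genes compared). The number of members past an adjusted p of 0.05 was 25 of 27 for LAN5 against IMR5, where 24.1% of all genes were higher and 27.9% lower. It was 27 of 30 for LAN5 against SK-N-FI (21.6% and 24.1% of all genes) and 14 of 27 for IMR5 against SK-N-FI (20.2% and 22.0%), the last a share near that of all genes in both directions together, though all 14 were higher in IMR5. The mean of LAN5 and IMR5 against SK-N-FI had 21 of 27 (18.8% and 22.9%). Against SK-N-BE(2), LAN5 had 18 of 20 (24.3% and 36.4%), IMR5 16 of 20 (29.0% and 33.4%) and the mean of the 3 sensitive lines 16 of 18 (26.4% and 32.7%). SK-N-FI had 10 of 19 (22.3% and 22.0%), which is near the background. Between LAN5 and IMR5 the members with the largest statistics were PLK2 (-1.46 ± 0.117), FAS (2.66 ± 0.240) and CDKN1A (1.29 ± 0.126). Between the mean of LAN5 and IMR5 and SK-N-FI they were CDKN1A (2.71 ± 0.126), RRM2B (2.38 ± 0.114) and PLK2 (2.14 ± 0.119). Between the mean of the 3 sensitive lines and SK-N-BE(2) they were GADD45A (2.22 ± 0.109), ZMAT3 (1.66 ± 0.104) and RRM2B (1.45 ± 0.0927). For RRM2B the difference of SK-N-FI alone from SK-N-BE(2) did not pass (-0.14 ± 0.126). No single library could be examined for standing apart, because the tables give 1 value per gene and line.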

How the results depend on the processing

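Counts of members called kept within 1.5 times of the reported count in 53 of 56 recomputed values. No value that was called in the main or the alternative setting changed sign. Changes of sign among values called in neither setting were not counted. The 3 exceptions came from a minimum absolute deposited log2 fold change of 1, which leaves fewer genes by construction: IMR5 then had 14 members called, SK-N-FI had 5 and SK-N-BE(2) had 0. Of single genes and contrasts, 1313 values stayed on their side of the threshold, 44 lost the call and 6 gained it. Centring each table on its median (0.12 in LAN5) ended the LAN5 against SK-N-FI difference of PPM1D (0.26) and ACER2, and brought that of MDM4 past the threshold (-0.40). At an adjusted p under 0.01 the rise of SERTAD1 in IMR5 and the GADD45A difference between LAN5 and SK-N-FI (-0.52) were no longer called. No paired analysis was possible because the tables hold no values per library; for the same reason the planned count tests with edgeR or DESeq2, other normalization, count filters and leaving out each replicate were not run. Low counts limit SK-N-BE(2), where 6 members had no adjusted p, and its contrasts, which leave out 11 to 13 members with a mean under 100.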
